A study of Mus musculus with 40 samples.

Results

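The 7 genes described here encode beta subunits of the sodium pump (Atp1b1, Atp1b3) and FXYD proteins that regulate it (Fxyd2, Fxyd3, Fxyd4, Fxyd5, Fxyd6). They were taken by symbol from a table of 55414 genes, in which each had 1 row. Their transcripts were measured by RNA sequencing in 22 libraries of mpkCCD cells, which are immortalized mouse cells of the renal collecting duct. All cells carried the same treatment, 72 hours of the vasopressin analogue dDAVP at 0.1 nM on permeable supports, in a medium with dexamethasone, selenite and transferrin, so no library is free of vasopressin agonist or glucocorticoid. Unmodified control clones with genotype WT gave 11 libraries. Cells of genotype ATF1-KO gave 5, those of genotype ATF1/CREB1-KO gave 3 and those of genotype ATF1/CREB1/CREM-KO gave 3. The CREB family of transcription factors, to which ATF1, CREB1 and CREM belong, acts downstream of cyclic AMP. A further 18 samples of a rescue experiment in the triple knockout were not analysed here.

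The library numbers form 3 runs of consecutive numbers, which the labels do not call batches. Run 1 holds control clones 1 to 5 and ATF1-KO, run 2 holds control clones 6 to 8 and ATF1/CREB1-KO, and run 3 holds control clones 9 to 11 and ATF1/CREB1/CREM-KO. Run 2 stood apart from the others: 89 ribosomal protein genes took 7.21% to 15.3% of its transcripts, against 2.69% to 4.15% in runs 1 and 3. Every knockout was therefore set against controls of the same run only. Whether replicates of a knockout are separate clones is not stated, so p-values measure only the spread between these libraries, which may be technical. Values are TPM, a length-corrected share of all transcripts, and the read depth behind them is unknown. With the single, double and triple knockout in that order, mean Atf1 was at 63.0%, 77.8% and 80.8% of own-run control, Creb1 at 127%, 61.0% and 49.6%, and Crem at 133%, 253% and 135%. Crem transcripts were thus not reduced where the label names CREM, and a knockout name below stands for the label. Of 12 principal cell markers, 9 averaged 1 TPM or more. That held for 1 of 6 intercalated cell markers (Atp6v1b1), 1 of 5 of the proximal tubule (Lrp2), 1 of 4 immune markers (Cd68), and for none of 5 of the thick ascending limb and distal convoluted tubule, none of 4 fibroblast and none of 3 endothelial markers. In bulk RNA, fewer cells of a type and less RNA per cell cannot be told apart.

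The sodium pump sits in the basolateral membrane of collecting duct principal cells, where it exports the sodium that enters through apical channels. Its catalytic alpha subunit needs a glycosylated beta subunit to fold and reach the membrane. FXYD proteins are small single-span membrane proteins that bind the assembled pump and tune its affinity for ions and its turnover. FXYD2 is the gamma subunit and lowers the apparent affinity for sodium, whereas FXYD4, also called CHIF (corticosteroid hormone-induced factor), is typical of the collecting duct and raises it.

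Promoter sequence is shown for the 2 FXYD genes with low levels in ATF1/CREB1/CREM-KO that have an entry in the RefSeq promoter table, and for Atp1b3, the member with a cyclic AMP response half-site. The table held 6 of the 7 genes, with a pair of start sites for Atp1b3. Each line gives the 250 bases before a start site, 5′ to 3′ on the gene's strand, on build GRCm38.p6, with half-sites in capitals. The Fxyd4 window is chr6:117937336-117937585 (minus strand), the Fxyd6 window chr9:45369935-45370184 (plus strand) and the Atp1b3 window chr9:96364432-96364681 (minus strand).
Fxyd4: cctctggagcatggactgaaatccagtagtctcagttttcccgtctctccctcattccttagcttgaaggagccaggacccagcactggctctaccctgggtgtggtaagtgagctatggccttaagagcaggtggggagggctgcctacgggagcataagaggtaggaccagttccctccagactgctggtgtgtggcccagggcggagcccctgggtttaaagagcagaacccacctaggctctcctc
Fxyd6: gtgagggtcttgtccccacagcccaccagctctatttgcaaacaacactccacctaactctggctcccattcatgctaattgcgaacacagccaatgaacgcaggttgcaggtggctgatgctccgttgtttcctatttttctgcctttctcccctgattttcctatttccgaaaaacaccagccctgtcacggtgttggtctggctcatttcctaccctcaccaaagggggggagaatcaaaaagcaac
Atp1b3: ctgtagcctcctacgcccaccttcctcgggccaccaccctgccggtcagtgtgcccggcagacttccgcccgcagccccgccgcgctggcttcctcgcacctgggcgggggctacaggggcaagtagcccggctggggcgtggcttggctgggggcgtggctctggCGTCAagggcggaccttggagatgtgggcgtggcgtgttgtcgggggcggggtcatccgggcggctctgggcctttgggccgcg
The motifs searched were the full cyclic AMP response element TGACGTCA and the half-site TGACG, which reads CGTCA on the other strand, both strands being searched in 300-base windows that reach 50 bases past the start. Any full element also holds the half-site. The full element was in none of the windows of the 6 genes, and in 1.79% of 32851 windows in the table. The half-site was in 20.8% of all windows and, among these genes, only in those of Atp1b3. It lay 84 bases before the first Atp1b3 start site, as printed, and 26 bases after the second. Fxyd4 and Fxyd6 have neither motif in these windows. The search covers these letters in these windows only.

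In the control clones the order of levels depended on the run. In run 1, Atp1b1 was highest at 718 TPM ± 38.7 (SD, n = 5), then came Fxyd4 at 449 ± 237, Fxyd2 at 266 ± 131 and Atp1b3 at 164 ± 14.0. Fxyd3 at 28.8 ± 18.6, Fxyd5 at 14.1 ± 10.6 and Fxyd6 at 1.16 ± 0.442 TPM followed. The ranges of neighbours overlapped here except between Atp1b3 and Fxyd3 and between Fxyd5 and Fxyd6. Run 3 controls had the same order, with no overlap between Atp1b1 and Fxyd4, Fxyd2 and Atp1b3, or Fxyd3 and Fxyd5 either. In run 2 controls Fxyd4 (1543 TPM ± 527, SD, n = 3) and Fxyd2 (1230 ± 403) led, with overlapping ranges, above Atp1b1 at 297 ± 10.1. Fxyd3 stood there at 131 ± 42.9, Fxyd5 at 38.3 ± 6.09 and Atp1b3 at 29.7 ± 1.37 TPM, so that Fxyd3 and Fxyd5 were above the beta subunit that exceeded both in the other runs. The summed FXYD level was 8.94 times the summed beta subunit level in run 2 controls, against 0.861 in run 1 and 0.819 in run 3. Clone and run cannot be told apart as sources of these differences.

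**Figure D1:**
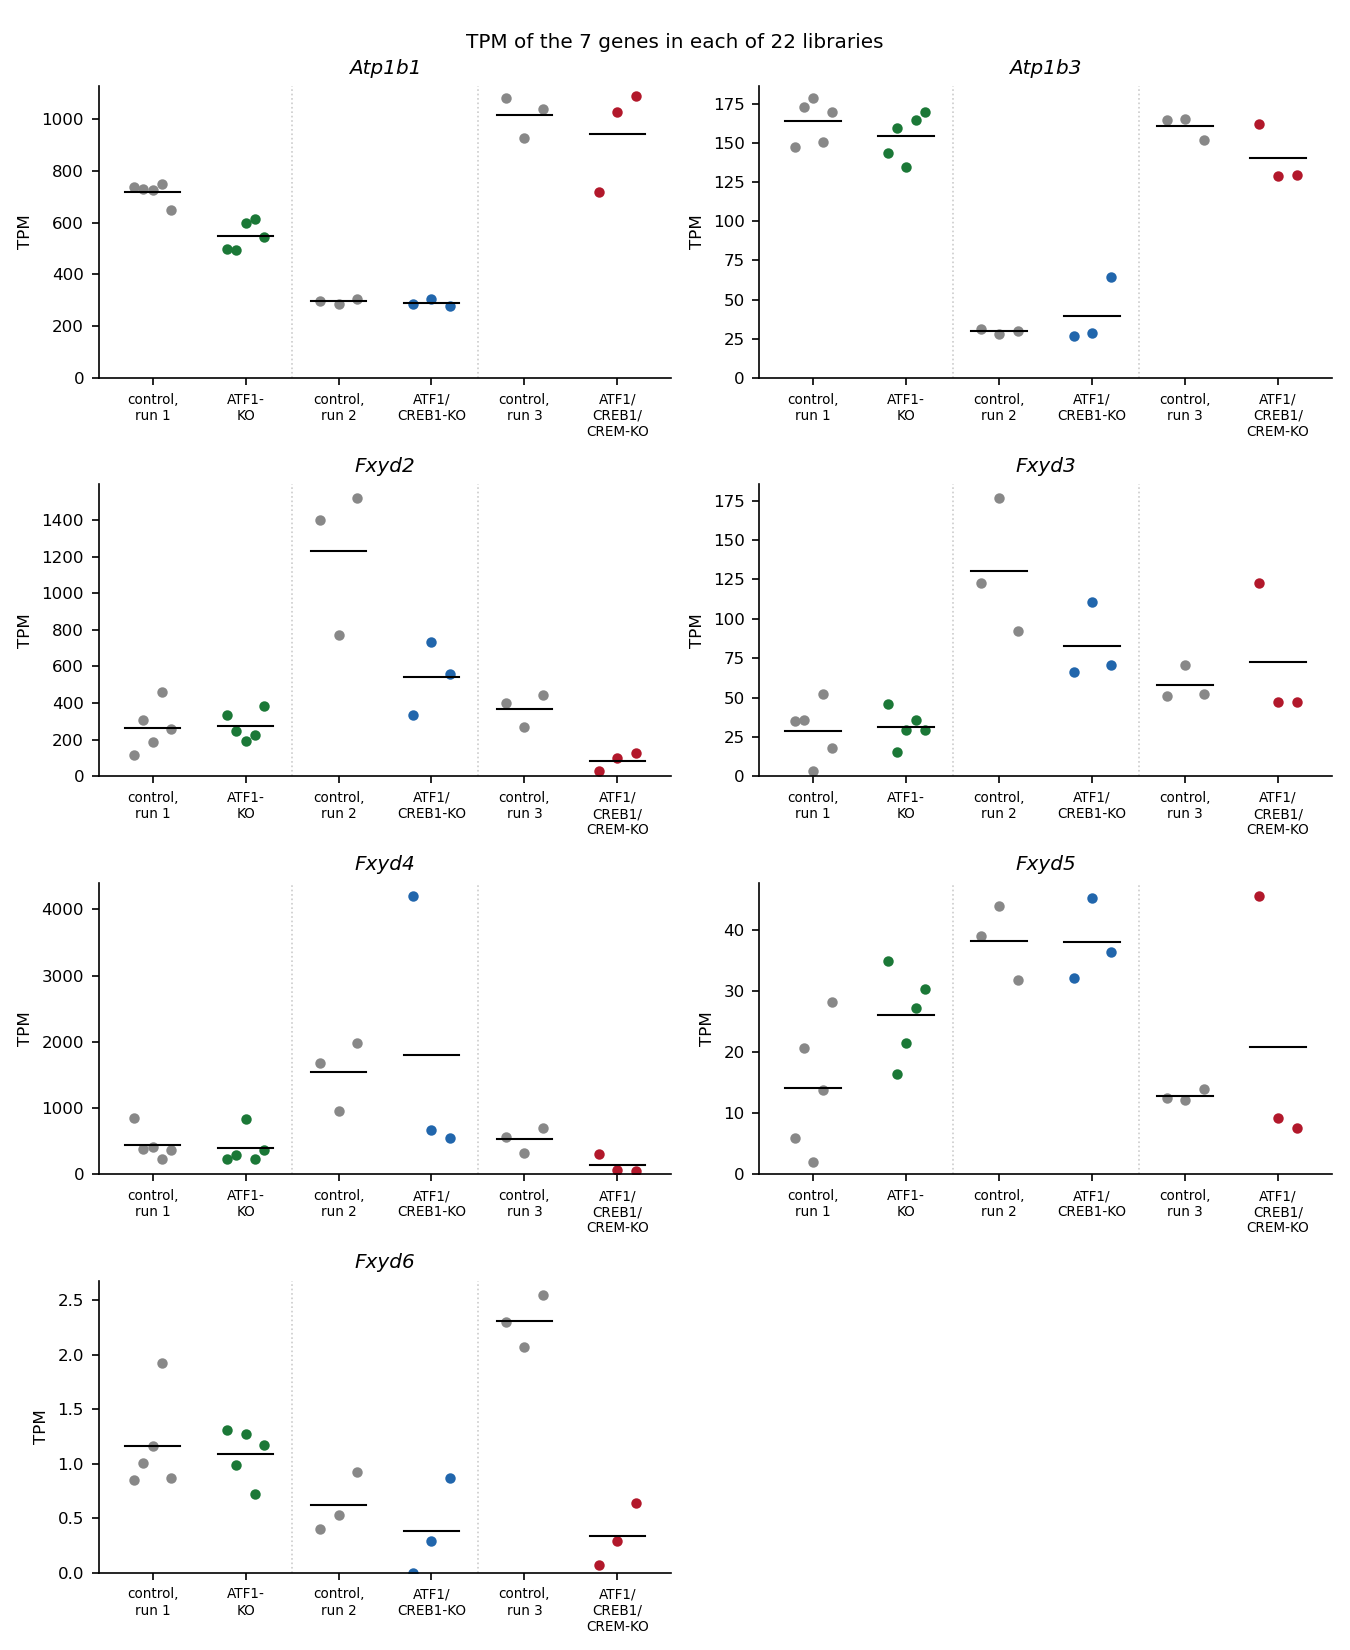
TPM of each gene (vertical axes, starting at 0) in every library, with points for single libraries and a black line for the group mean. Control clones are grey and dotted lines part the 3 runs. Fxyd2, Fxyd4 and Fxyd6 lie lower in all 3 ATF1/CREB1/CREM-KO libraries than in each run 3 control, Fxyd4 only narrowly so in replicate 1. This held for 20.2% of all genes tested in that comparison. The levels of run 2 differ from the other runs for most genes.

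The beta subunit Atp1b1 (ENSMUSG00000026576, chromosome 1) varied little within most groups, with a coefficient of variation of 3.39% to 20.9%. Its values were 737.78, 728.96, 724.83, 748.66 and 650.99 TPM in control clones 1 to 5 and 498.28, 493.17, 598.62, 614.15 and 546.04 TPM in ATF1-KO replicates 1 to 5. Every ATF1-KO library was below every control clone of the run. The mean was 76.6% of control, a log2 change of -0.39 (SE 0.0781, 95% interval -0.56 to -0.22). The unadjusted limma p was 4.17e-04 and the adjusted p was 0.514. The change did not pass the adjusted threshold of 0.05 under any setting tried (adjusted p 0.303 to 0.816). No gene did in this comparison as reported: 0 of 13318 were called by limma (0%), and 1014 had an unadjusted p under 0.05. Of the 7 genes, 1 (Atp1b1) had all ATF1-KO libraries below all controls, against 0.736% of all genes tested.

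In run 2, Atp1b1 was at 298.46, 286.70 and 306.76 TPM in the controls and 284.26, 304.35 and 278.33 TPM in ATF1/CREB1-KO. In run 3 it was at 1081.95, 928.37 and 1040.71 TPM in the controls and 719.30, 1026.59 and 1087.87 TPM in ATF1/CREB1/CREM-KO, where replicate 1 was the low library. The groups overlapped in both runs. The log2 changes were -0.04 (95% interval -0.43 to 0.35) in ATF1/CREB1-KO and -0.13 (-0.52 to 0.27) in ATF1/CREB1/CREM-KO, neither past the threshold (adjusted p 0.942 and 0.666). The Atp1b1 change in ATF1-KO was not shown to differ from those in the other labels, with adjusted p 0.325 against ATF1/CREB1-KO and 0.521 against ATF1/CREB1/CREM-KO.

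Atp1b3 (ENSMUSG00000032412, chromosome 9) encodes a beta subunit found in many tissues. It ranged from 147.18 to 178.73 TPM in run 1 controls and from 134.90 to 169.73 in ATF1-KO. In run 2 it was 28.25 to 30.97 TPM in controls and 26.55, 28.39 and 64.56 TPM in ATF1/CREB1-KO, so that replicate 3 alone stood above the controls. In run 3 the controls had 164.40, 165.52 and 151.70 TPM and ATF1/CREB1/CREM-KO had 162.35, 128.79 and 129.32 TPM. Groups overlapped in each run. The log2 changes were -0.09, 0.29 and -0.20 in the single, double and triple knockout, with 95% intervals of -0.27 to 0.10, -0.52 to 1.11 and -0.47 to 0.06, and none passed (adjusted p 0.805, 0.805 and 0.293). Leaving out replicate 1 of the triple knockout moved the last to -0.31 with an adjusted p of 0.0200.

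Atp1b1 exceeded Atp1b3 in every library. The ratio of their TPM was 4.42 ± 0.541 (SD, n = 5) in run 1 controls and 3.59 ± 0.535 in ATF1-KO. It was 10.0 ± 0.342 (SD, n = 3) in run 2 controls and 8.58 ± 3.70 in ATF1/CREB1-KO, and 6.35 ± 0.657 in run 3 controls and 6.94 ± 2.18 in ATF1/CREB1/CREM-KO. The knockout mean was below the control mean in runs 1 and 2 and above it in run 3. The ratio was not tested.

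Among the FXYD genes, Fxyd2 and Fxyd6 fell in ATF1/CREB1/CREM-KO, and these were the 2 of 7 genes called there. Fxyd6 had a knockout mean under the filter of 1 TPM and entered the test through its control level; of the other 6 genes, 1 was called. In that comparison limma called 1216 of 13258 genes (9.17%), of which 698 were lower (5.26%). All 3 libraries were below all 3 controls for Fxyd2, Fxyd4 and Fxyd6, which is 3 of 7 genes (2 of 6 without Fxyd6) against 20.2% of all genes tested. None of the 7 genes was called in ATF1-KO or ATF1/CREB1-KO, where limma called 0% and 0.0715% of genes (9 of 12579, with 1199 at an unadjusted p under 0.05).

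**Figure D2:**
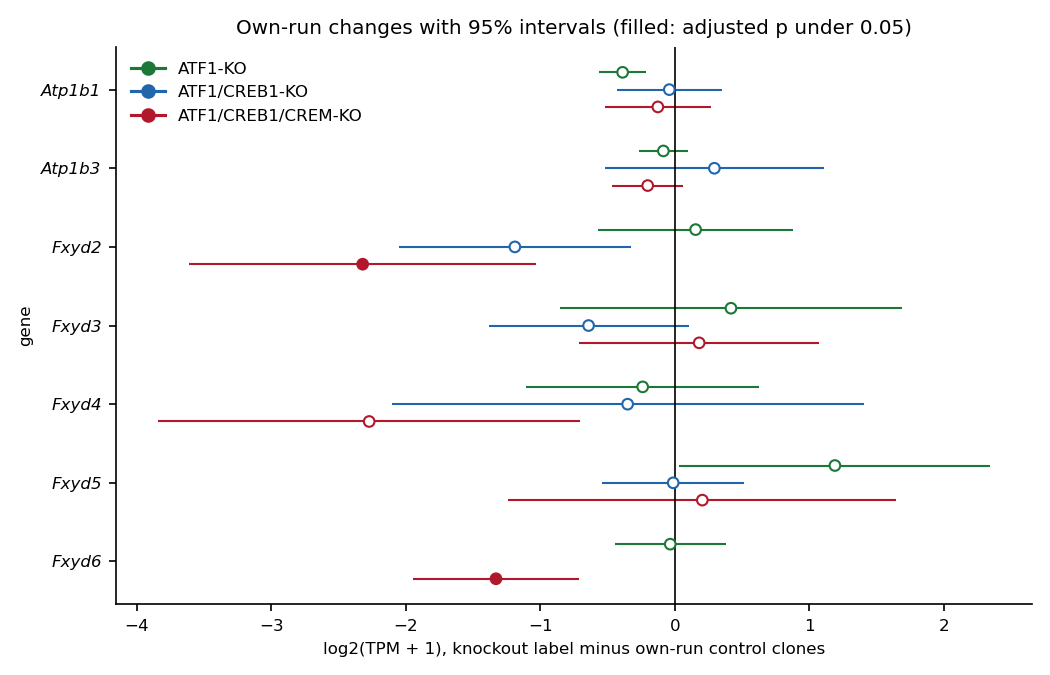
Difference in mean log2(TPM + 1), knockout label minus own-run control clones (horizontal axis), for each gene, with 95% intervals from limma. Filled points passed an adjusted p of 0.05; only Fxyd2 and Fxyd6 in ATF1/CREB1/CREM-KO did, at -2.32 and -1.33. Fxyd6 has no point for ATF1/CREB1-KO, where its mean was under 1 TPM.

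Fxyd2 (ENSMUSG00000059412, chromosome 9), the gamma subunit gene, was at 401.24, 266.52 and 441.48 TPM in control clones 9 to 11. In ATF1/CREB1/CREM-KO it was at 28.27, 99.79 and 128.31 TPM. The highest knockout library was below the lowest control, and replicate 1 was the lowest of all 22 libraries. The mean fell from 370 TPM ± 91.6 (SD, n = 3) to 85.5 ± 51.5, which is 23.1% of control or 4.33-fold lower. The log2 change was -2.32 (SE 0.542, 95% interval -3.61 to -1.03, adjusted p 0.0461). The call sat near the threshold: leaving out any library other than ATF1/CREB1/CREM-KO replicate 1 gave -2.74 to -2.18 and adjusted p between 0.0548 and 0.157, and leaving out that replicate gave -1.67 and 0.00358. It was also lost against all 11 control clones (-2.52, adjusted p 0.115) and with no filter on low values (0.101).

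In run 2, Fxyd2 was at 1400.56, 770.15 and 1520.66 TPM in the controls and 335.02, 735.85 and 559.12 TPM in ATF1/CREB1-KO. The groups did not overlap, which held in the lower direction for 12.4% of all genes tested in this comparison and for 1 of the 6 members tested. The mean was 44.2% of control and the log2 change -1.19 (SE 0.367, 95% interval -2.05 to -0.33), which did not pass (adjusted p 0.415). In run 1, Fxyd2 was at 115.45, 308.45, 188.72, 460.21 and 257.27 TPM in controls and 333.51, 246.80, 190.36, 225.31 and 386.03 TPM in ATF1-KO. These ranges overlapped, and the log2 change was 0.15 (95% interval -0.57 to 0.88, adjusted p 0.917).

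The Fxyd2 change in ATF1/CREB1/CREM-KO was lower than that in ATF1-KO by 2.48 on the log2 scale (difference -2.48, SE 0.630, adjusted p 0.0329). Of the 7 genes, 2 (Fxyd2 and Fxyd6) passed in this difference, as did 3.57% of 13295 genes. Fxyd6 averaged 1.01 TPM over the 22 libraries, just over the filter of 1 TPM, with its highest level in the run 3 controls. It fell under the filter without control clone 9, 10 or 11, and apart from Fxyd6 only Fxyd2 passed. The adjusted p of the Fxyd2 difference ran from 0.0186 to 0.0934 over the other settings and passed in 17 of 25. It did not pass without control clone 1, 3, 9 or 11, ATF1-KO replicate 1, 2 or 5, or ATF1/CREB1/CREM-KO replicate 1. The differences between ATF1/CREB1/CREM-KO and ATF1/CREB1-KO (-1.13, 95% interval -2.60 to 0.34, adjusted p 0.694) and between ATF1/CREB1-KO and ATF1-KO (-1.34, -2.66 to -0.03, adjusted p 0.309) did not pass. None of the 7 genes passed there, where 0.188% and 1.46% of all genes did (1115 and 2066 at an unadjusted p under 0.05). The changes thus were 0.15 in ATF1-KO, -1.19 in ATF1/CREB1-KO and -2.32 in ATF1/CREB1/CREM-KO, and only the first and last were told apart by the test. Each label had its own run, so the number of factors named and the run cannot be told apart.

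Fxyd4 (ENSMUSG00000004988, chromosome 6), the collecting duct form, was at 571.96, 319.14 and 694.93 TPM in control clones 9 to 11. In ATF1/CREB1/CREM-KO it was at 304.40, 69.19 and 51.80 TPM. All 3 libraries were below the lowest control, replicate 1 only narrowly so. The mean was 529 TPM ± 192 (SD, n = 3) in controls and 142 ± 141 in the knockout, 26.8% of control or 3.73-fold lower. The log2 change of -2.27 (SE 0.660, 95% interval -3.84 to -0.70) was close to that of Fxyd2 in size and did not pass (adjusted p 0.0809). Without replicate 1 it was -3.05 with an adjusted p of 0.00159, and it passed under no other setting (adjusted p 0.0537 to 0.226).

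Fxyd4 scattered widely within ATF1/CREB1-KO, where the libraries were at 4198.34, 674.79 and 544.11 TPM. The controls of that run were at 1688.65, 957.60 and 1981.55 TPM. Replicate 1 was the highest of all 22 libraries for this gene, and replicates 2 and 3 were below all 3 controls. The log2 change was -0.35 (95% interval -2.11 to 1.40, adjusted p 0.889). In run 1 the controls were at 852.35, 382.21, 417.42, 228.46 and 364.64 TPM and ATF1-KO at 233.74, 293.73, 839.13, 230.55 and 371.25 TPM. Each group had 1 library above 800 TPM and the ranges overlapped. The log2 change was -0.24 (95% interval -1.10 to 0.63, adjusted p 0.895). The change in ATF1/CREB1/CREM-KO was not shown to differ from that in ATF1-KO (difference -2.03, adjusted p 0.276) or in ATF1/CREB1-KO (-1.92, adjusted p 0.643).

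In 4 of the 6 groups the library with the most Fxyd4 had the least Fxyd2 of its group. These were control clone 1 (852.35 TPM of Fxyd4 and 115.45 of Fxyd2), ATF1-KO replicate 3 (839.13 and 190.36), ATF1/CREB1-KO replicate 1 (4198.34 and 335.02) and ATF1/CREB1/CREM-KO replicate 1 (304.40 and 28.27). In the controls of runs 2 and 3 the library highest in Fxyd4 was also highest in Fxyd2. This pattern was noticed after the values were seen and was not tested.

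**Figure D3:**
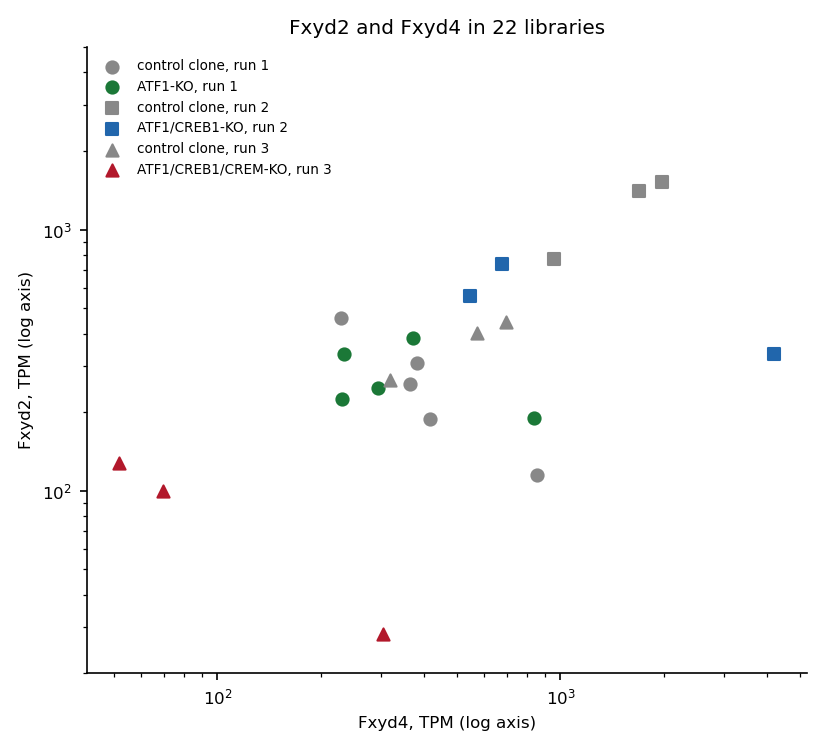
Fxyd2 against Fxyd4 in TPM, both on log axes, 1 point per library, with symbols for the runs and colours for the labels. The 3 ATF1/CREB1/CREM-KO libraries lie at 28.27 to 128.31 TPM of Fxyd2, where only control clone 1 joins them, and replicate 1 of ATF1/CREB1-KO stands alone at 4198.34 TPM of Fxyd4.

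Fxyd6 (ENSMUSG00000066705, chromosome 9) was a low transcript throughout. It encodes phosphohippolin, a regulator known mainly from the nervous system and inner ear. Its values were 2.30, 2.07 and 2.55 TPM in control clones 9 to 11 and 0.07, 0.29 and 0.64 TPM in ATF1/CREB1/CREM-KO. The groups were well apart, and these controls were the highest of the 22 libraries. The mean of 0.333 TPM was 14.5% of the control mean of 2.31, or 6.92-fold lower, and the log2 change was -1.33 (SE 0.259, 95% interval -1.95 to -0.71, adjusted p 0.0281). The pseudocount of 1 makes this an understatement of the fold at such levels: with 0.1 the change was -2.71 with an adjusted p of 0.0511. The knockout mean alone was under the filter of 1 TPM, which the mean over both groups passed through the control level. Against all 11 control clones the change was -0.76 (adjusted p 0.395), and leaving out 1 library other than replicate 1 of the knockout gave adjusted p between 0.0537 and 0.110, against 0.0188 without that replicate.

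In run 1, Fxyd6 was at 0.85, 1.01, 1.16, 1.92 and 0.87 TPM in controls and 1.31, 0.99, 1.27, 0.72 and 1.17 TPM in ATF1-KO, with overlapping ranges and a log2 change of -0.03 (95% interval -0.45 to 0.38, adjusted p 0.971). In run 2 it was at 0.40, 0.53 and 0.92 TPM in controls and was listed at 0, 0.29 and 0.87 TPM in ATF1/CREB1-KO, too low to be tested. The change in ATF1/CREB1/CREM-KO differed from that in ATF1-KO by -1.30 (SE 0.320, adjusted p 0.0282). That difference was lost with a pseudocount of 0.1 (adjusted p 0.0849), median-ratio scaling (0.128) and quantile normalization (0.141), and on leaving out replicate 1 (0.0555) or 2 (0.0680) of the triple knockout. Fxyd6 averaged 1.01 TPM over the 22 libraries, and in 6 of the 22 leave-outs (control clones 4, 9, 10 and 11, ATF1-KO replicates 1 and 3) it fell under the filter and was not tested.

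Among the genes tested, Fxyd6 and Fxyd2 are next to each other on chromosome 9 in the GENCODE M21 order, on the same strand. The 3 tested genes nearest on the Fxyd6 side were Mpzl3, Tmprss4 and Gm17099 and those on the Fxyd2 side Cep164, Bace1 and Gm16536. Their log2 changes in ATF1/CREB1/CREM-KO lay between -0.14 (Cep164) and 0.12 (Gm16536) and none passed (adjusted p 0.682 to 0.999). At the Fxyd4 locus on chromosome 6, the log2 changes of the 6 nearest tested genes lay between -0.65 (Gm43863) and 0.23 (Gm4875), and none passed. Hnrnpf was nearest to the threshold (-0.59, adjusted p 0.0598). At the Fxyd5 and Fxyd3 locus on chromosome 7, Hpn had a log2 change of -1.63 (adjusted p 0.0656) and the other 5 neighbours lay between -0.07 and 0.29 (adjusted p 0.0860 to 0.895).

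Fxyd3 and Fxyd5 did not pass in any label and lie in 1 FXYD cluster on chromosome 7. Fxyd3 (ENSMUSG00000057092), also called Mat-8 and expressed in several epithelia, was at 50.93, 70.47 and 51.95 TPM in control clones 9 to 11 and at 122.66, 46.90 and 47.31 TPM in ATF1/CREB1/CREM-KO. Replicate 1 was above all controls and replicates 2 and 3 below all of them. The log2 change was 0.18 (95% interval -0.71 to 1.07, adjusted p 0.794). In ATF1/CREB1-KO it was 66.36, 110.49 and 70.79 TPM against 122.73, 176.83 and 92.03 in controls, a log2 change of -0.64 (-1.39 to 0.10, adjusted p 0.585) with overlapping ranges. In run 1 the range was 3.57 to 52.17 TPM in controls and 15.08 to 45.59 in ATF1-KO (log2 change 0.42, -0.85 to 1.69, adjusted p 0.873).

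Fxyd5 (ENSMUSG00000009687) encodes dysadherin, which is linked to cell adhesion as well as to the pump. It was at 12.57, 12.22 and 13.98 TPM in control clones 9 to 11 and at 45.61, 9.30 and 7.56 TPM in ATF1/CREB1/CREM-KO. Again replicate 1 was above, and replicates 2 and 3 below, every control. The log2 change was 0.20 (95% interval -1.24 to 1.65, adjusted p 0.858), and without replicate 1 it was -0.57 with an adjusted p of 0.0289. In run 1 Fxyd5 was at 5.99, 20.64, 2.12, 13.75 and 28.23 TPM in controls and 34.97, 16.44, 21.59, 27.31 and 30.33 TPM in ATF1-KO. The ranges overlapped, with 2 ATF1-KO libraries above all controls, and the log2 change of 1.19 (0.03 to 2.35, adjusted p 0.653) did not pass. In run 2 the controls spanned 31.84 to 43.95 TPM and ATF1/CREB1-KO 32.18 to 45.26 TPM, a log2 change of -0.01 (-0.54 to 0.52, adjusted p 0.987).

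Replicate 1 of ATF1/CREB1/CREM-KO thus stood apart from replicates 2 and 3 in most members. Relative to their mean it had 5.41 times the Fxyd5, 5.03 times the Fxyd4, 2.60 times the Fxyd3 and 1.26 times the Atp1b3. It had 0.680 times the Atp1b1, 0.248 times the Fxyd2 and 0.151 times the Fxyd6. Replicates 2 and 3 differed from each other by 0.411% (Atp1b3) to 28.7% (Fxyd4) of their mean in the members other than Fxyd6, where the values are below 1 TPM. Without replicate 1, which was singled out after its values were seen, limma called 3317 genes in this comparison (25.1% of those tested) in place of 1216. Of the 7 genes, 5 were then called, all lower: Atp1b3, Fxyd2, Fxyd4, Fxyd5 and Fxyd6. Fxyd6, at 0.29 and 0.64 TPM in replicates 2 and 3, passed the filter of 1 TPM only through its control level.

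**Figure D4:**
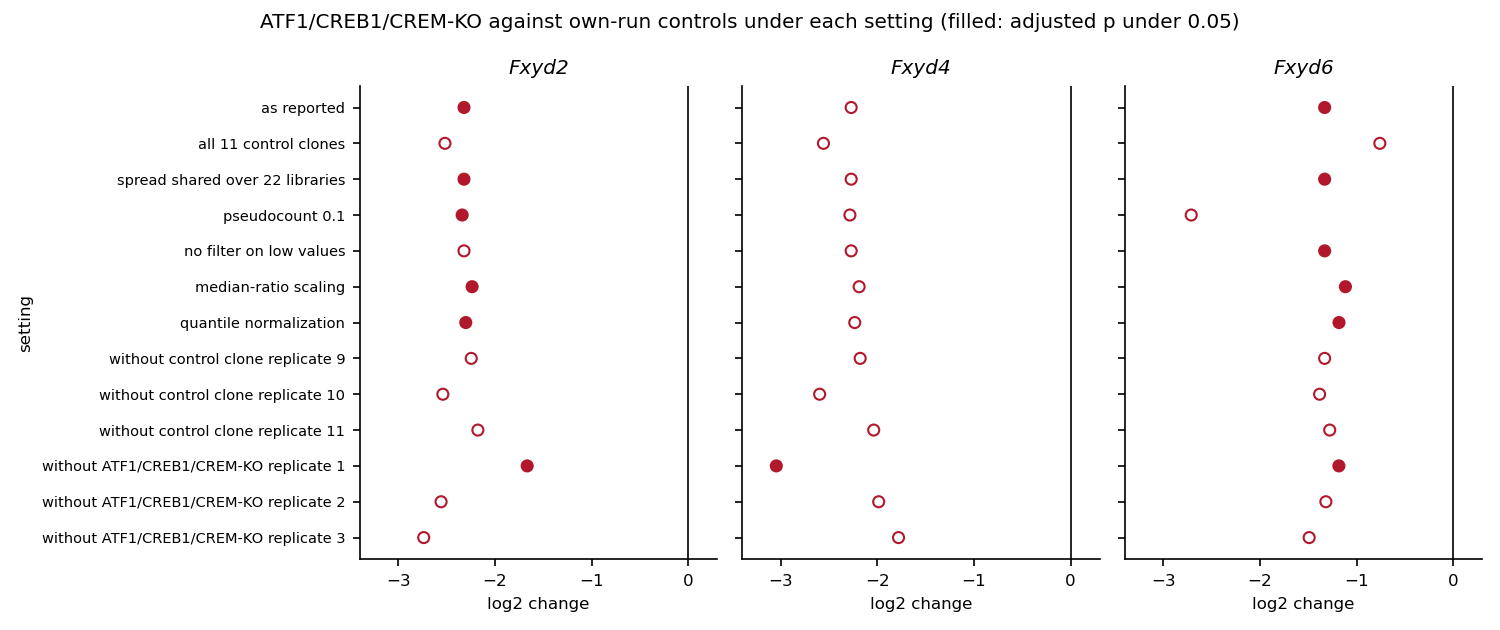
Log2 change of Fxyd2, Fxyd4 and Fxyd6 in ATF1/CREB1/CREM-KO (horizontal axes) under each setting (vertical axis), filled where the adjusted p was under 0.05. All points lie below 0; Fxyd2 passed as reported and under 5 of 12 other settings, Fxyd6 under 5 of 12 and Fxyd4 under 1 of 12.

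The summed level of FXYD transcripts did not overlap between ATF1/CREB1/CREM-KO and its controls. Of all single genes tested in this comparison, 20.2% lay wholly below the controls. The 5 FXYD genes summed to 971 TPM ± 274 (SD, n = 3) in run 3 controls, with 670 TPM as the lowest, and to 321 ± 156 in the knockout, with 501 TPM as the highest. The beta subunits summed to 1178 ± 77.3 and 1085 ± 179 TPM. The FXYD sum per beta subunit sum was 0.819 ± 0.199 in controls and 0.319 ± 0.216 in the knockout, where replicate 1 was at 0.568. Fxyd4 and Fxyd2 made up 53.4% and 38.3% of the pool in controls, so the lower sum mostly restates their levels. Fxyd3 and Fxyd5 were not called. In the knockout Fxyd4 made up 60.8% in replicate 1 but 30.7% and 22.0% in replicates 2 and 3, and Fxyd2 5.64%, 44.3% and 54.5%. Fxyd3 took 20.1% to 24.5% of the pool in all 3 knockout libraries against 4.31% to 10.5% in the controls, while its own level was not shown to change. The pools were not tested.

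**Figure D5:**
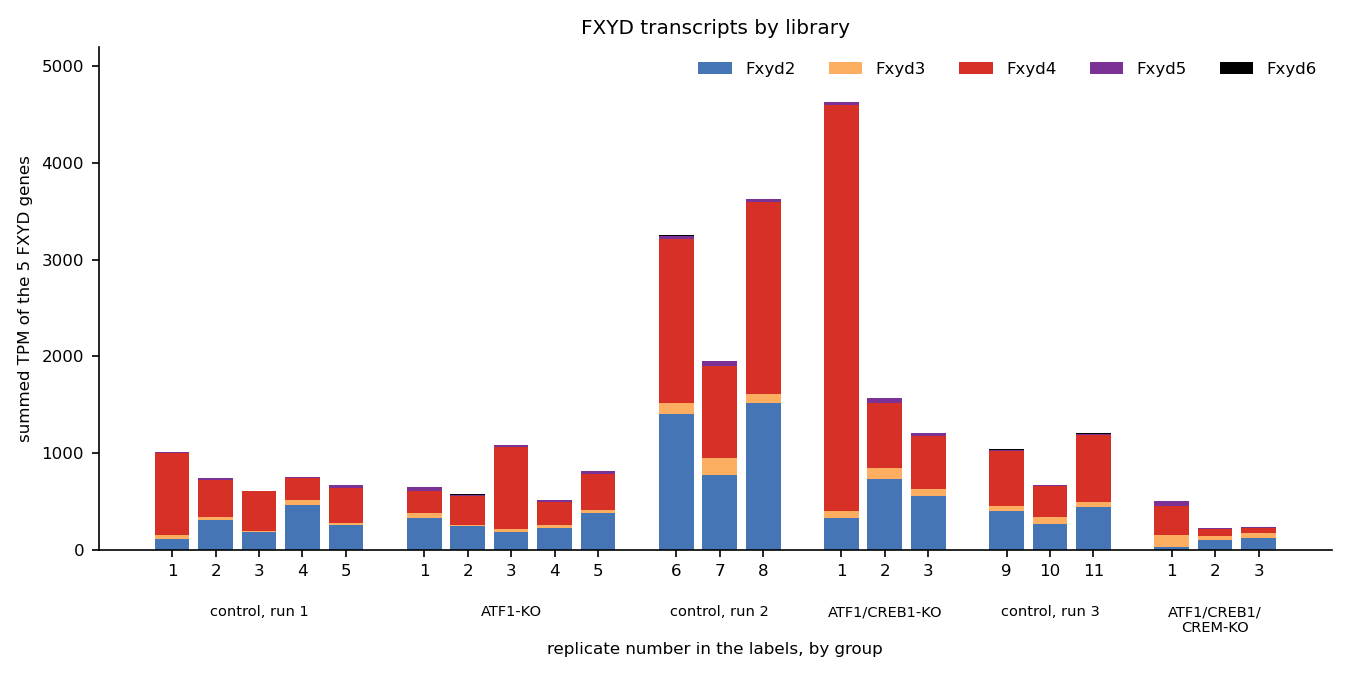
Summed TPM of the 5 FXYD genes per library (stacked bars from 0, by gene), in the order of the labels. The 3 ATF1/CREB1/CREM-KO libraries have the smallest sums of the 22 libraries, and run 2 has the largest; Fxyd6 is too low to be seen in most bars.

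In the marker lists, the summed level of the 12 principal cell markers was 1528 to 3297 TPM in run 3 controls and 856 to 1459 TPM in ATF1/CREB1/CREM-KO. That list includes Aqp2, the vasopressin-regulated water channel gene, which was at 1516 TPM ± 825 (SD, n = 3) in these controls and at 15.5 ± 0.499 in the knockout, 1.02% of control. The other 11 markers summed to 887 to 1018 TPM in controls and to 840 to 1444 TPM in the knockout, so that without Aqp2 the groups overlapped. The 5 proximal tubule markers, with Slc22a6 at 0 in all libraries, summed to 19.8 to 21.5 TPM in controls and to 1.30, 1.73 and 25.2 TPM in the knockout libraries. The sums of 3 low lists did not overlap between these groups. Of all single genes tested in this comparison, 34.6% did not overlap either, in 1 direction or the other. The 5 thick ascending limb and distal convoluted tubule markers (Pvalb at 0 throughout) summed to 0.23 to 0.46 TPM in controls and 2.09 to 4.55 TPM in the knockout. The 4 immune markers (Lyz2 at 0 throughout) summed to 5.00 to 8.02 and 2.28 to 3.35 TPM, and the 4 fibroblast markers (Col1a2 at 0 throughout) to 0.19 to 0.31 and 0 to 0.17 TPM. The intercalated cell and endothelial sums overlapped. The part of these markers in the results was not tested.

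Likeness was described by correlating deviations of log2(TPM + 1) from the own-run control mean over the 22 libraries, among 9171 genes that averaged 10 TPM or more. The libraries share runs and, for 11 of them, the control clones that set the zero. The 3 genes most like Fxyd2 were Mmut (r = 0.911), Cdadc1 (0.901) and Pigg (0.900), and those most like Fxyd4 were Sort1 (0.876), Gpcpd1 (0.875) and Vwa8 (0.849). Fxyd2 and Fxyd4 had r = 0.263 with each other, though each had a higher r with Aqp2 (0.770 and 0.717). For Fxyd4, 53 of the 9171 genes had a higher r than Aqp2, and for Fxyd2 144, each count including the gene itself. Aqp2 was at 15.1 to 16.1 TPM in the ATF1/CREB1/CREM-KO libraries and at 379 TPM or more in all others. Fxyd2 and Fxyd4 were also below their own-run controls in those libraries, so these r values partly restate that. How far they do was not tested. The 3 genes most like Fxyd5 were Mgst3 (0.925), Pgls (0.912) and Mvb12a (0.889), and the 2 most like Fxyd3 were Elmo3 (0.807) and Gm26377 (0.792). Fxyd3 and Fxyd5 had r = 0.691 with each other, and Fxyd5 had r = -0.70 with Atp1b1. The beta subunits were unrelated by this measure (r = -0.01). Atp1b1 was most like Atp6v1a (0.918), Fgf1 (0.909) and Selenop (0.870), and Atp1b3 most like Paics (0.947), Ndufa9 (0.943) and Ap1s1 (0.942). Atp1b3 deviated most in ATF1/CREB1-KO replicate 3 (64.56 TPM, against 28.25 to 30.97 TPM in its controls). How far its r values rest on that library was not tested.

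The other family genes examined were at low levels. Of these 14 genes, only Atp4a averaged 1 TPM or more, 9 were under 1 TPM in every library, and Fxyd7, Atp4b and Nkain4 were listed at 0 throughout. The FXYD cluster gene Fxyd1 reached at most 1.46 TPM and the beta subunit gene Atp1b2 at most 2.12 TPM. Only Atp4a passed the filter and was tested, in ATF1-KO and ATF1/CREB1-KO, where it was not called (adjusted p 0.937 and 0.978). The other 13 were tested in no comparison, and none of the 14 in ATF1/CREB1/CREM-KO.

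A list of 21 genes that act with the pump in sodium transport (sodium channel subunits, their kinases and hormone receptors, potassium channels, and the ankyrin and spectrin scaffold) gave 4 higher and 1 lower call among 18 tested in ATF1/CREB1/CREM-KO, against 3.91% and 5.26% of all genes. Among the 16 with both group means at 1 TPM or more, which leaves out Stk39 and Scnn1b, 3 were called higher and 1 lower. The median log2 change was 0.17 in the 18 and -0.05 over all genes tested. Sgk1, the kinase that raises sodium channel and pump activity, rose from 108 TPM ± 43.7 (SD, n = 3) to 1290 ± 460, 12.0-fold, with a log2 change of 3.57 (adjusted p 0.00418). Stk39, the kinase SPAK, was at 0.523 TPM in controls and 7.76 in the knockout (log2 change 2.43, adjusted p 0.0130). With controls under the filter of 1 TPM, it could be tested here only because its level in the knockout was higher. Nr3c2, the mineralocorticoid receptor, had a log2 change of 1.47 (adjusted p 0.0119) at 5.30 TPM. Ank3, ankyrin-G, a scaffold of the lateral membrane, rose from 27.5 TPM ± 0.125 to 41.2 ± 3.28 (log2 change 0.56, adjusted p 0.0185), while Sptan1, alpha-II spectrin, fell from 204 ± 8.70 to 151 ± 6.00 (log2 change -0.43, adjusted p 0.0204). All 5 separated the 3 knockout libraries from the 3 controls, as 34.6% of all genes tested did. These 5 were picked by their calls in the same libraries, so their separation adds no support to those calls. Ank3 and Sptan1 were lost when any library but replicate 1 of the knockout was left out (adjusted p 0.0582 to 0.0890). Ank3 was also lost with the spread shared over 22 libraries (0.114) and against all 11 controls (0.571), where Sptan1 had a log2 change of 0.09. Stk39 was lost without control clone 9 or 11 or knockout replicate 2 (0.0571 to 0.0674), and Nr3c2 without control clone 11 or knockout replicate 2 or 3 (0.0510 to 0.0567). Sgk1 was lost only against all 11 controls (0.133).

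In ATF1/CREB1-KO no gene of this list was called among 16 tested (3 at an unadjusted p under 0.05). Limma called only 0.0715% of all genes there, so this count says little about the list. Sgk1 was nearest, at 160 TPM ± 47.4 against 19.9 ± 8.60 in controls (log2 change 2.98, adjusted p 0.0568). Nr3c2 was at 4.97 TPM against 1.20 TPM in controls (log2 change 1.39, adjusted p 0.371). In ATF1-KO none was called among 17 tested (2 at an unadjusted p under 0.05), where limma called 0% of all genes. Sgk1 ranged from 36.34 to 833.59 TPM in controls and from 32.57 to 120.37 TPM in the knockout. Its log2 change was -1.39 with an adjusted p of 0.713.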

How the data were processed

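RNA was measured in mpkCCD cells. Per the labels' protocols, cDNA was amplified by PCR, tagmented, and sequenced with paired ends. The authors deposited TPM per gene; STAR and RSEM are named in the submitters' processing notes, and versions, genome build and annotation are not given in the sources used here. The unit was read from the values, since each column sums to that of TPM. TPM keeps no read depth, so no counting interval is given. TPM is relative: a rise in some genes lowers all others.

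Each knockout label was compared with the control clones of its run by limma 3.58.1 in R 4.3.3 (lmFit, eBayes with trend) on log2(TPM + 1), restricted to genes averaging 1 TPM or more in the compared libraries. P-values were adjusted by Benjamini-Hochberg across every gene tested, and a gene was called under 0.05. Log2 changes are on that scale. Differences between labels were contrasts in 1 fit over 22 libraries. The method was tested on simulated data with independent noise and changes planted only in genes above a low level. That does not cover genes as low as Fxyd6 or Stk39, or a shift shared by a whole library. The genes, lists and tests were chosen with earlier results of these data known. Named genes were the 7 members, the targeted genes, Aqp2, called genes of the lists and up to 3 genes most like each member. Gene order came from GENCODE M21 and promoters from RefSeq. For alternatives, the pseudocount, filter, scaling, controls and libraries were varied. Some genes that these rules take in are not reported here.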

Additional observations from a re-analysis of the deposited data

Results flagged for a closer look

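In 24 sets of 5 libraries looked at (12 genes in the control clones of run 1 and in ATF1-KO), 5 had a lone library at 1 end, by Dixon's 95% criterion. Chance gives about 1 in 20. Control clone 5 was low for Atp1b1 (650.99 TPM). ATF1-KO replicate 3 was high for Fxyd4 (839.13 TPM). Control clone 4 was high for Fxyd6 (1.92 TPM). Single run 1 control clones were also high for Stk39 (1.66 TPM) and for Sptan1 (192.15 TPM).

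Among the members and the called genes of the lists, the change differed between labels by limma for 4 genes. Of all 13295 genes tested, 3.57% passed in ATF1/CREB1/CREM-KO minus ATF1-KO and 1.46% in ATF1/CREB1-KO minus ATF1-KO. Sgk1 and Stk39 were included because they were called in these libraries, so the 4 cannot be weighed against those shares. ATF1/CREB1/CREM-KO minus ATF1-KO was -2.48 for Fxyd2 (adjusted p 0.0329), -1.30 for Fxyd6 (0.0282), 4.96 for Sgk1 (0.0106) and 2.60 for Stk39 (0.0106) on the log2 scale. ATF1/CREB1-KO minus ATF1-KO was 4.37 for Sgk1 (adjusted p 0.0404). The last was lost with quantile normalization (0.0874) and without any of control clones 1, 3, 6, 7, 8, 9 and 11, ATF1-KO replicates 1, 2, 4 and 5 and ATF1/CREB1/CREM-KO replicates 2 and 3 (0.0510 to 0.103). The Stk39 difference was lost with a pseudocount of 0.1 (0.0714). Stk39 averaged 0.540 TPM in the 11 control clones and 0.548 TPM in ATF1-KO. It passed the filter of 1 TPM mainly through its level in ATF1/CREB1/CREM-KO (7.76 TPM). Fxyd6, at 1.01 TPM over the 22 libraries, was just over the filter.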

How the results depend on the processing

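The number of called genes moved with the settings. Against all 11 control clones it was 4260 for ATF1/CREB1-KO (9 as reported) and 137 for ATF1/CREB1/CREM-KO (1216), where this choice moved the median of all genes to -0.96 and 0.28 on the log2 scale (0.36 for ATF1-KO). With no filter on low values the counts were 0 and 710. ATF1/CREB1-KO gave 609 with the spread shared over 22 libraries and 16 with median-ratio scaling. The count of differences gave 389 (median-ratio scaling) and 330 (quantile normalization) for ATF1/CREB1-KO minus ATF1-KO (194), and 16 for ATF1/CREB1/CREM-KO minus ATF1/CREB1-KO (25) with a pseudocount of 0.1 and under both scalings. Leaving out 1 library in turn gave 0 to 1 for ATF1-KO, 0 to 60 for ATF1/CREB1-KO, 185 to 3317 for ATF1/CREB1/CREM-KO, and, for the differences in the order ATF1/CREB1-KO minus ATF1-KO, ATF1/CREB1/CREM-KO minus ATF1-KO and ATF1/CREB1/CREM-KO minus ATF1/CREB1-KO, 88 to 620, 273 to 879 and 7 to 59. Against all 11 control clones the sign turned for Atp1b3 (0.58), Fxyd2 (-0.63) and Fxyd3 (-0.63) in ATF1-KO, for Atp1b3 (-1.46), Fxyd2 (0.32), Fxyd3 (0.79), Fxyd4 (0.91) and Fxyd5 (1.19) in ATF1/CREB1-KO, and for Atp1b1 (0.58), Atp1b3 (0.44), Fxyd5 (-0.078) and Sptan1 (0.089) in ATF1/CREB1/CREM-KO. It also turned for the difference ATF1/CREB1/CREM-KO minus ATF1/CREB1-KO of Atp1b1 (0.00326, median-ratio scaling) and ATF1/CREB1-KO minus ATF1-KO of Fxyd4 (0.10, quantile normalization). Leaving out 1 library turned the sign of changes that had not passed: Fxyd2 (-0.11 to 0.39), Fxyd3 (-0.16 to 0.72), Fxyd4 (-0.56 to 0.026) and Fxyd6 (-0.085 to 0.079) in ATF1-KO, Atp1b3 (-0.11 to 0.52), Fxyd4 (-1.28 to 0.19) and Fxyd5 (-0.14 to 0.10) in ATF1/CREB1-KO, and Atp1b1 (-0.24 to 0.058), Fxyd3 (-0.27 to 0.41) and Fxyd5 (-0.57 to 0.66) in ATF1/CREB1/CREM-KO. The same held for the differences of Fxyd3 (-0.69 to 0.34, ATF1/CREB1/CREM-KO minus ATF1-KO), Fxyd4 (-1.04 to 0.43) and Atp1b3 (-0.022 to 0.60, both ATF1/CREB1-KO minus ATF1-KO), and Atp1b1 (-0.20 to 0.10) and Fxyd5 (-0.55 to 0.67, both ATF1/CREB1/CREM-KO minus ATF1/CREB1-KO). The causes were not tested. The differences of Fxyd6 had no value in 6 of 22 leave-outs, where its mean was under 1 TPM. Fxyd2, Fxyd4 and Fxyd6 were lower in ATF1/CREB1/CREM-KO under each of the 12 alternatives, but passed in only 5, 1 and 5 of them. Every knockout library was below every own-run control for these genes. Leaving out 1 library or changing the pseudocount or filter therefore could not turn the sign.

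Control clones 1 to 5 and ATF1-KO share the replicate numbers 1 to 5. Same-numbered libraries did not deviate together (r between -0.103 and 0.084 over 13318 genes), and only number 5 correlated best with its own number. A replicate block gave 0 called genes, as without it, with 927 in place of 1014 at an unadjusted p under 0.05. No paired analysis was possible for the other comparisons because their groups share no replicate number. Read depth is unknown and no limit of detection is given.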
